A study of Mus musculus with 11 samples.

Results

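Acute-phase proteins are plasma proteins whose production by the liver changes during inflammation. The list examined here held 10 genes, chosen by their Ensembl identifiers out of 22019 genes in the table of footprint counts. They were Saa1 (ENSMUSG00000074115), Saa2 (ENSMUSG00000057465), Saa4 (ENSMUSG00000040017), Hp (ENSMUSG00000031722), Orm1 (ENSMUSG00000039196), Orm2 (ENSMUSG00000061540), Lcn2 (ENSMUSG00000026822), Apcs (ENSMUSG00000026542), Crp (ENSMUSG00000037942) and Itih4 (ENSMUSG00000021922). The deposited table gives identifiers without names, and the names are those of the list's own definition.

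The study measured ribosome footprints in liver of male wild-type mice on a chow diet or on a High-Fat-High-Sugar (HFHS) diet, which the column names call HFD. Monosome footprints, of about 30 nt, are the pieces of mRNA covered by 1 ribosome, and disome footprints, of about 60 nt, are covered by a pair of ribosomes stacked on each other. There were 3 chow and 3 HFHS monosome libraries, and 3 chow and 2 HFHS disome libraries. No further treatment is given for either diet group, and the sources used here do not state strain, age or feeding time. The samples are named as replicates, with no word on whether each is a separate mouse, and the p-values reflect the spread between samples, which may be technical. Libraries are named below by the barcode in their column name, since no replicate number is given there.

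When interleukin-6 and interleukin-1 reach hepatocytes, signalling through STAT3, NF-kB and C/EBP factors raises transcription of acute-phase genes. Serum amyloid A proteins and, in mice, serum amyloid P (the product of Apcs) respond strongly, while mouse C-reactive protein is known as a weak responder. These proteins are secreted, so their mRNAs are translated at the endoplasmic reticulum.

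Library totals ran from 795145 to 1612324 counts in monosomes and from 147212 to 279331 in disomes, so that 3 counts equalled 1.86 to 3.77 CPM (counts scaled to a common library total) in a monosome library and 10.7 to 20.4 CPM in a disome library. Both chow libraries of barcode AGCTA differed from the rest of their groups. Over genes with a mean above 50 CPM, log2(CPM + 1) in the monosome library AGCTA correlated at 0.829 and 0.839 with the other chow libraries, which correlated at 0.978 with each other. In chow disomes the corresponding values were 0.791, 0.795 and 0.957. Where the number of members called changed without both of these libraries, the changed number is given. Hp, Orm1, Apcs and Itih4, products of hepatocytes, had counts in all 11 libraries. The other markers of liver and blood cell types were not analysed here, because the gene table used here (RefSeq, assembly GRCm38.p6) carries no Ensembl identifiers to link names to lines.

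Saa1 and Saa2 are neighbouring copies on chromosome 7, and RefSeq lists the symbol of each as a synonym of the other. Orm1 and Orm2 are neighbours on chromosome 4. The sources used here do not say how the authors assigned footprints that match both copies of a pair, so values of the single copies are uncertain and each pair was also tested as a sum. The promoters of Saa1 and Saa2 are shown because both genes were called in the diet comparison and because they show how alike the copies are. Both are RefSeq promoters of GRCm38.p6, 5′ to 3′ on the gene's strand, from 250 bases before to 50 after the annotated start; capitals mark matches to the C/EBP motif TTNNGNAA on either strand.

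Saa1 promoter, chr7:46742931-46743230, minus strand: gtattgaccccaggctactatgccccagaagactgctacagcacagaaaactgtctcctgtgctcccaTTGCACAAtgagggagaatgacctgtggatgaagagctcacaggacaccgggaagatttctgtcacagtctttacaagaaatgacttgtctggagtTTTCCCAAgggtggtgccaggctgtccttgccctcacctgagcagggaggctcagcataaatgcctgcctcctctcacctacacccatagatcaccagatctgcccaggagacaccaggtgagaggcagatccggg

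Saa2 promoter, chr7:46751583-46751882, plus strand: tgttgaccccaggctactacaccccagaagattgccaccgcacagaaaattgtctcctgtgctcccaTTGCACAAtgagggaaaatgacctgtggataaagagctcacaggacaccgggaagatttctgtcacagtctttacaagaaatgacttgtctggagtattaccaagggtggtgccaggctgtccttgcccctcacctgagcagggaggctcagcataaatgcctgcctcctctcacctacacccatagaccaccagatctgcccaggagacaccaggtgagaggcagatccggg

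The promoters were identical at 287 of 301 aligned positions (95.3%), whereas the Saa1 and Saa4 promoters matched at 50.7%. The match TTGCACAA lay at bases -182 to -175 from the start in Saa1 and at -183 to -176 in Saa2. A further match in Saa1, TTTCCCAA at -86 to -79, was not present in Saa2. TTNNGNAA is a loose motif, found in 40.7% of 32851 promoters of the same length. The motif letters GGGANTTTC for NF-kB (in 1.11% of promoters), TTCNNNGAA for STAT3 (8.3%), GTTAATNAT for HNF1 (0.801%) and TTGCGCAA, a strict form of the C/EBP motif that TTNNGNAA also matches (0.183%), were absent from both windows. Promoters were matched by symbol for 8 of the 10 genes; those of Hp and Orm1 were not among them. TTGCGCAA lay in the Orm2 promoter at -120 to -113, and TTCNNNGAA in those of Apcs (TTCTAGGAA, -244 to -236) and Itih4 (TTCCGAGAA, -51 to -43). The loose motif TTNNGNAA was not particular to Saa1 and Saa2. It also matched in the Saa4 promoter (TTGCCAAA at -245 to -238 and TTGAGCAA at -52 to -45) and in those of Orm2, Lcn2 and Crp. It was absent from those of Apcs and Itih4. A match describes letters only and does not show that a factor was bound. For NF-kB, STAT3 and HNF1 only the letters given were searched, so an absence holds for those letters and not for looser forms.

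The 10 genes together took 0.761% ± 0.047 (SD, n = 3) of counts in chow monosomes and 0.772% ± 0.057 (n = 3) in HFHS monosomes. In disomes their share was 0.613% ± 0.034 (n = 3) in chow and 0.64% ± 0.012 (n = 2) in HFHS. Diets overlapped within each footprint class, and every disome library lay below every monosome library. Hp and Itih4 supplied most of these counts, between 77.1% and 84.7% of them in every library. A share of counts grows with the length of the coding sequence as well as with ribosome density, and no coding length was used here, so levels of different genes are not ranked.

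**Figure D1:**
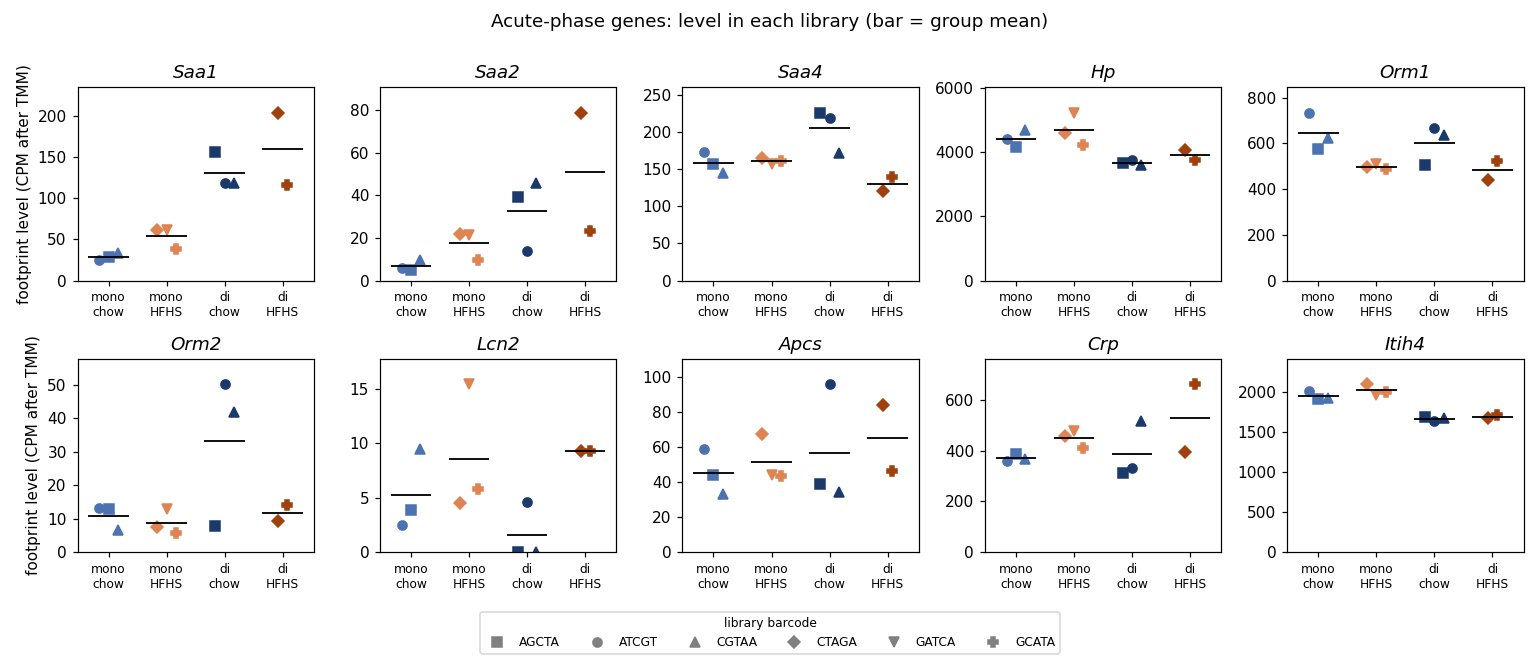
Footprint level (CPM after TMM scaling, linear axis from 0) of each acute-phase gene in the 11 libraries; symbols give the library barcode and the bar the group mean, with monosomes and disomes scaled separately. The HFHS monosome libraries of Saa1, Saa2 and Crp lie above the chow ones, and those of Orm1 lie below.

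The first comparison asked which of these genes changed their monosome footprints with the HFHS diet. Saa1 and Saa2, the serum amyloid A proteins that are induced in acute inflammation and travel on high-density lipoprotein, were the members called higher. Both calls were lost when chow library AGCTA, or some other single libraries, were left out. Saa4, the serum amyloid A that is made constitutively, and the haemoglobin scavenger haptoglobin (Hp) had log2 fold changes of 0.025 and 0.083 and did not pass the test. Among 9 members tested, 2 were called higher and 0 lower at an adjusted p below 0.05 (edgeR quasi-likelihood test, Benjamini-Hochberg over 6754 genes). Of all genes tested, 3.02% were called higher and 1.63% lower. The 2 calls are not separate results to set against these shares. Saa2 met the count filter through the libraries where it is high, and it may share reads with Saa1. With copies summed, 1 member was called higher. The members' median log2 fold change was 0.083 and that of all genes was -0.016. There is no measure of mRNA in these libraries, so more mRNA and more ribosomes per mRNA cannot be told apart, nor can fewer expressing cells and less RNA per cell.

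Saa1 stood at 24.5 (ATCGT), 28.3 (AGCTA) and 33.2 CPM (CGTAA) in chow monosomes and at 61.2 (CTAGA), 60.9 (GATCA) and 38.5 CPM (GCATA) in HFHS monosomes, from 22 to 35 and 60 to 82 counts. The groups did not overlap, and GCATA was the lowest of the HFHS libraries. The mean rose from 28.7 ± 4.35 to 53.5 ± 13.1 CPM (n = 3 each), which is 1.85-fold, or 0.89 ± 0.23 (SE) on the log2 scale (adjusted p = 0.0179, edgeR). Saa2 stood at 5.73, 5.15 and 9.49 CPM in the same chow libraries and at 21.7, 21.4 and 9.62 CPM in the HFHS libraries. These were 7, 4 and 10 counts against 29, 25 and 15, with GCATA again lowest and only just above the chow library CGTAA. Its log2 fold change was 1.30 ± 0.39 (2.47-fold, adjusted p = 0.0469). Saa2 met the count filter through the HFHS libraries, where it is high, since chow libraries ATCGT and AGCTA lay below it. Without a filter its log2 fold change was 1.32 (adjusted p = 0.0152, edgeR over 13429 genes). With both copies summed into 1 line, the log2 fold change was 0.99 ± 0.22 (1.98-fold, adjusted p = 0.00825).

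Both calls depended on single libraries. The adjusted p of Saa1 was 0.0847 when chow library ATCGT was left out, 0.0547 for AGCTA, and 0.0975 and 0.073 for the HFHS libraries CTAGA and GATCA, with log2 fold changes of 0.77 to 0.89. Saa2 passed only when the HFHS library GCATA was the one left out (adjusted p = 0.00951); its adjusted p reached 0.198 without CTAGA. Its log2 fold change stayed between 1.11 and 1.64 whichever library was left out.

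Orm1, orosomucoid or alpha-1-acid glycoprotein, which binds small lipophilic molecules, had 735 (ATCGT), 577 (AGCTA) and 624 CPM (CGTAA) in monosomes of the chow diet, against 497 (CTAGA), 511 (GATCA) and 487 CPM (GCATA) on HFHS. The HFHS libraries lay close together and below every chow library. The log2 fold change was -0.37 ± 0.13 and did not pass (adjusted p = 0.105), although it passed with a minimum count of 50 (-0.42, adjusted p = 0.0438). Summed with Orm2, it was -0.37 ± 0.13 (adjusted p = 0.105). Crp, the pentraxin C-reactive protein, which binds phosphocholine on damaged membranes and microbes, had 360 (ATCGT), 387 (AGCTA) and 366 CPM (CGTAA) in chow and 457 (CTAGA), 477 (GATCA) and 412 CPM (GCATA) in HFHS monosomes. These groups did not overlap either, and the log2 fold change of 0.27 ± 0.13 did not pass (adjusted p = 0.287). How many of all genes tested had groups that did not overlap was not counted in any comparison. Separation of the libraries is therefore only a description for every member, in this and in the other comparisons.

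The other tested members overlapped between the diets in monosomes. Hp had 4426 ± 265 CPM in chow and 4689 ± 513 CPM in HFHS, or 0.083 ± 0.096 on the log2 scale (adjusted p = 0.742). Itih4, a heavy chain of the inter-alpha-trypsin inhibitor family, had 1950 ± 57.3 and 2022 ± 71.7 CPM (log2 fold change 0.052 ± 0.10). For Hp and Itih4, with 3239 to 6581 and 1483 to 3124 counts a library, counting error is small and these are the most precise values of the list. Saa4 had 159 ± 14.2 and 161 ± 4.40 CPM (log2 fold change 0.025 ± 0.14). Apcs, the pentraxin serum amyloid P, which coats amyloid and chromatin, had 45.3 ± 12.9 and 51.5 ± 13.6 CPM. Orm2 had 10.9 ± 3.66 and 8.70 ± 3.71 CPM, on 7 to 16 counts a library. Lcn2, lipocalin 2, which withholds iron from bacteria by binding their siderophores, was below the count filter with 3, 3 and 10 counts in chow and 6, 18 and 9 in HFHS. Without the filter its log2 fold change was 0.65 ± 0.47 (edgeR adjusted p = 0.664), and the groups overlapped.

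**Figure D2:**
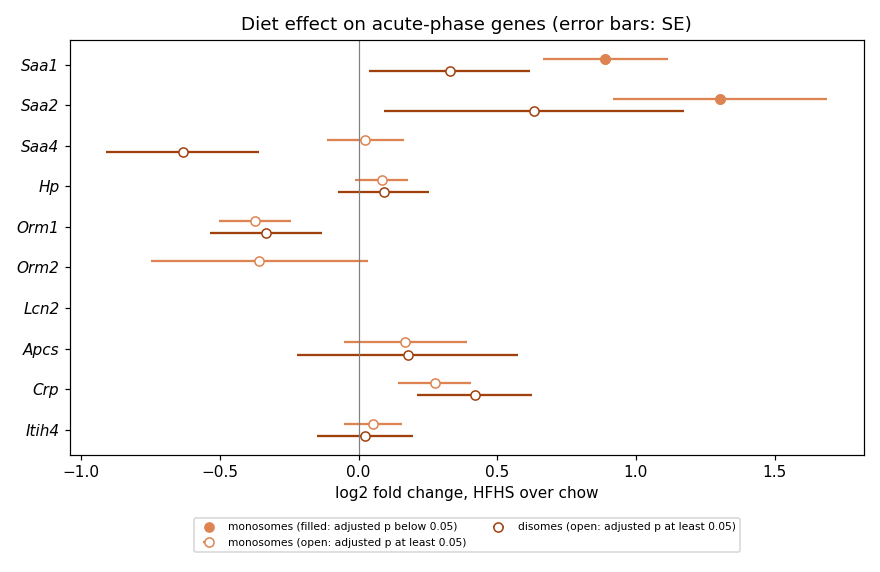
Log2 fold change of HFHS over chow (points, with SE) for the members that passed the count filter, in monosomes and in disomes; filled points have an edgeR adjusted p below 0.05. Only Saa1 and Saa2 in monosomes are filled.

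The second comparison put the same question to disome footprints, at a shallower depth. Of 8 members tested, 0 were called in either direction, where 1.82% of 2804 genes were called higher and 1.14% lower. At an unadjusted p below 0.05 there were 2 of the 8 members, Saa4 and Crp, where 375 of all 2804 genes (13.4%) had such a p. DESeq2 called 0 members as well, giving no adjusted p for Saa1, Saa2 and Apcs. The members' median log2 fold change was 0.13, against -0.025 over all genes tested.

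Saa1 disomes stood at 156 (AGCTA), 119 (ATCGT) and 118 CPM (CGTAA) in chow and at 204 (CTAGA) and 116 CPM (GCATA) in HFHS, from 20 to 44 counts. The HFHS libraries lay on either side of all chow libraries. The log2 fold change was 0.33 ± 0.29 (adjusted p = 0.69), and it was -0.14 without CTAGA. Saa2 disomes had 5, 3 and 12 counts in the same chow libraries and 17 and 5 in the HFHS libraries, or 0.63 ± 0.54 on the log2 scale (adjusted p = 0.672). The sum of the copies changed by 0.40 ± 0.26 on the log2 scale (adjusted p = 0.549).

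Saa4 disomes had 226 (AGCTA), 219 (ATCGT) and 171 CPM (CGTAA) in chow and 121 (CTAGA) and 139 CPM (GCATA) in HFHS. Both HFHS libraries lay below the chow libraries, on 26 and 30 counts against 29 to 48. The log2 fold change of -0.63 ± 0.28 did not pass (adjusted p = 0.254). Crp disomes had 312 (AGCTA), 333 (ATCGT) and 518 CPM (CGTAA) in chow and 395 (CTAGA) and 663 CPM (GCATA) in HFHS. These overlapped, and the log2 fold change was 0.42 ± 0.21 (adjusted p = 0.345). Orm1 disomes averaged 603 ± 84.0 CPM in chow and 483 ± 58.8 CPM in HFHS (log2 fold change -0.33 ± 0.20, adjusted p = 0.498), and Orm1 thus had a value below 0 in both footprint classes without passing in either. Hp averaged 3672 ± 77.9 and 3910 ± 235 CPM, Itih4 1668 ± 27.2 and 1694 ± 32.0 CPM, and Apcs 56.4 ± 34.2 and 65.0 ± 26.3 CPM (n = 3 in chow and 2 in HFHS). Orm2 was below the count filter, with 1 count in AGCTA, 11 in ATCGT and 11 in CGTAA against 2 in CTAGA and 3 in GCATA. Lcn2 had 0, 1 and 0 counts in chow and 2 in each HFHS library.

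The third comparison tested whether the diet effect differed between disomes and monosomes. None of 9 members tested was called (0 of all 7236 genes, that is 0%), and 1 member, Saa4, had an unadjusted p below 0.05, as did 358 of all genes (4.95%). The difference (disome effect minus monosome effect, log2) was -0.58 ± 0.28 for Saa4, -0.48 ± 0.37 for Saa1, -0.58 ± 0.66 for Saa2, 0.095 ± 0.16 for Hp and 0.059 ± 0.18 for Itih4 (adjusted p = 1 for each, rounded). The difference was -1.23 ± 0.83 for Orm2, the largest of the list and on few counts. For Crp it was 0.25 ± 0.27, for Orm1 0.13 ± 0.24 and for Apcs 0.084 ± 0.49. DESeq2 called 0 members too. That fit did not use the barcodes, so its errors are those of unpaired libraries. With the sample barcode as a replicate block, the difference was -0.38 for Saa1 and -0.38 for Saa2 (adjusted p = 0.988 for each, edgeR). The calls of Saa1 and Saa2 in monosomes and the absence of a call in disomes were therefore not shown to differ. In the main fit the errors for Saa1 and Saa2 are wide. A disome response as large as the monosome response, or none, would both lie within about 2 SE.

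The remaining comparisons described how many disomes each gene carried for its monosomes. Saa1 was called higher in disomes on both diets, 3.79-fold in chow and 2.60-fold in HFHS relative to the average gene, and Saa2 was called higher in HFHS. Hp and Itih4 were called lower in disomes on both diets, with log2 ratios between -0.50 and -0.46. Monosome and disome libraries were scaled within each fit, so a ratio of 1 means the average gene, and these comparisons share their libraries with the diet comparisons. Among 7 members tested in chow, 1 was called higher and 2 lower, where 21.6% of 4713 genes were called higher and 23.3% lower. That fit did not use the barcodes. With the sample barcode as a replicate block, 3 members were called lower, Orm1 being the addition, as were 1191 of all 4713 genes. Among 10 tested in HFHS, 2 were called higher and 2 lower, where 11.5% of 7437 genes were called higher and 13.6% lower. With so many genes called, the number of calls among the members is no result in itself. The members' median log2 ratio was -0.13 in chow and -0.0017 in HFHS, against -0.012 and -0.07 over all genes tested.

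In chow, Saa1 had 31.2 ± 5.05 CPM in monosomes and 121 ± 19.0 CPM in disomes (n = 3 each, scaled in that fit). Every disome library lay above every monosome library, which is only a description. Its log2 ratio was 1.92 ± 0.26 (3.79-fold, adjusted p = 1.76e-07), above 97.9% of the genes tested. In HFHS it had 54.3 ± 13.2 CPM in monosomes (n = 3) and 140 ± 52.7 CPM in disomes (n = 2), a log2 ratio of 1.38 ± 0.27 (2.60-fold, adjusted p = 0.000348), above 93.6% of genes. The call in chow held without any 1 library (log2 ratio 1.75 to 2.02) and without both AGCTA libraries (1.76, adjusted p = 1.18e-05). The call in HFHS was lost without the disome library CTAGA (0.91, adjusted p = 0.115).

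Saa2 was below the count filter for the chow ratio. Its counts there were 7 (ATCGT), 4 (AGCTA) and 10 (CGTAA) in monosomes and 3, 5 and 12 in the much shallower disome libraries of the same barcodes. Without a filter its log2 ratio was 1.82 ± 0.52 (adjusted p = 0.00426 over 12932 genes). In HFHS the log2 ratio was 1.36 ± 0.49 (adjusted p = 0.0478) although the groups overlapped. It was 0.22 when disome library CTAGA was left out (adjusted p = 0.877), and 1.06 when monosome library GCATA was left out (adjusted p = 0.0794). Summed, the copies had a log2 ratio of 1.94 ± 0.24 in chow (3.84-fold, adjusted p = 2.45e-08) and 1.37 ± 0.30 in HFHS (2.58-fold, adjusted p = 0.0026). Saa2 supplied 23.1% of the counts of the pair in monosomes (exact 95% binomial interval 19.0 to 27.6, counting error only) and 22.3% in disomes (16.6 to 29.0). For Orm1 and Orm2 the pooled intervals did not overlap: Orm2 supplied 1.64% of the pair's counts in monosomes (1.27 to 2.07) and 4.56% in disomes (3.05 to 6.52). Single libraries did overlap, with 1.05% to 2.45% in monosomes and 1.52% to 7.01% in disomes, the highest being chow libraries ATCGT and CGTAA. Whether reads shared by the copies set these splits was not tested.

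Saa4, on the same chromosome, did not share the high ratio. It had 172 ± 13.5 CPM in monosomes and 190.5 ± 27.1 CPM in disomes in chow (log2 ratio 0.12 ± 0.18, adjusted p = 0.629), and 164 ± 4.39 and 114 ± 13.0 CPM in HFHS (-0.53 ± 0.22, adjusted p = 0.0809). The HFHS ratio passed the test with no filter (-0.66, adjusted p = 0.0364) and with a minimum count of 50 (-0.52, adjusted p = 0.0453), and did not pass with DESeq2 (adjusted p = 0.19). In HFHS both disome libraries lay below all monosome libraries, which is only a description.

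Hp had 4813 ± 312 CPM in monosomes and 3404 ± 96.1 CPM in disomes in chow, a log2 ratio of -0.50 ± 0.12 (adjusted p = 0.000552). In HFHS the means were 4753 ± 516 and 3421 ± 158 CPM, a log2 ratio of -0.47 ± 0.13 (adjusted p = 0.00577), and its adjusted p was 0.0546 when disome library GCATA was left out. Itih4 had log2 ratios of -0.46 ± 0.13 in chow (adjusted p = 0.00304) and -0.47 ± 0.13 in HFHS (adjusted p = 0.00853), the latter lost without the monosome library CTAGA (adjusted p = 0.0526) or the disome library CTAGA (0.0586). Groups did not overlap for either gene on either diet, which is only a description, as the share over all genes was not counted. All of these values lie within the interquartile range of all genes, which ran from -0.69 to 0.57 in chow and from -0.80 to 0.57 in HFHS. Orm1 had -0.31 ± 0.15 in chow (adjusted p = 0.0823; 0.0136 with the sample barcode as a replicate block, 0.0209 with no filter, 0.0284 with a minimum count of 50, 0.147 with DESeq2) and -0.26 ± 0.16 in HFHS (adjusted p = 0.248).

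The ratios of Apcs (0.10 ± 0.34 in chow, 0.12 ± 0.34 in HFHS) and Crp (-0.13 ± 0.16 and 0.029 ± 0.18) lay near the average gene with wide errors. Orm2 was tested in HFHS only (0.25 ± 0.74). In chow, without a filter, it had a log2 ratio of 1.37 ± 0.45 (adjusted p = 0.0162), which rests on 11 disome counts in each of ATCGT and CGTAA and 1 in AGCTA. Lcn2 had a log2 ratio of -0.032 ± 0.85 in HFHS, on 2 disome counts in each library.

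**Figure D3:**
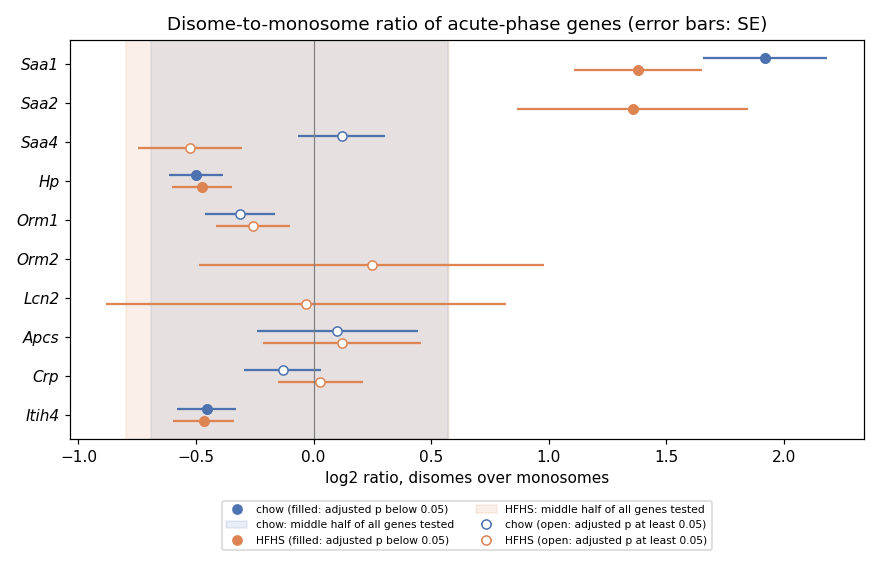
Log2 ratio of disomes over monosomes (points, with SE) for members that passed the count filter, in chow and in HFHS; shading marks the interquartile range of all genes tested and filled points an edgeR adjusted p below 0.05. Saa1 in both diets and Saa2 in HFHS lie to the right of the shading.

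The ratio was also taken within each barcode, as disome CPM over monosome CPM on plain library totals, although the labels do not say that a barcode stands for 1 animal. Saa1 had ratios from 2.81 to 4.91 over the 5 barcodes found in both classes, and Saa2 from 2.18 to 6.75. Those of Saa4 ran from 0.687 to 1.28, those of Hp from 0.701 to 0.835, and those of Itih4 from 0.743 to 0.80. The lowest ratio of Saa1 thus lay above the highest of Saa4, Hp, Itih4, Orm1 (1.00), Apcs (1.49) and Crp (1.50). Orm2, with 0.54 to 5.77, overlapped with Saa1.

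**Figure D4:**
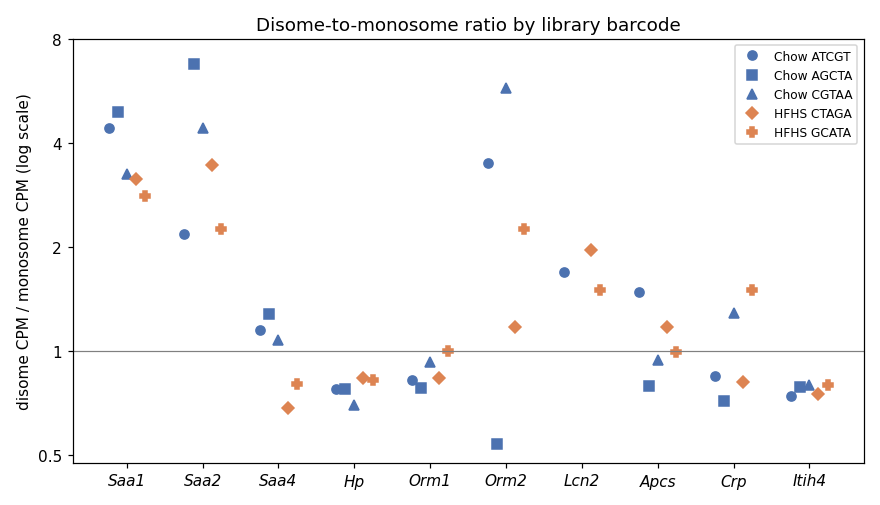
Disome CPM divided by monosome CPM (log axis) for each member within each of the 5 barcodes that occur in both footprint classes; colour gives the diet. Saa1 and Saa2 lie above 2 in all 5 barcodes, Hp and Itih4 below 1 in all 5; the 2 chow barcodes in which Lcn2 had no disome count are not drawn, and Orm2 and Lcn2 rest on few counts.

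The pattern of Saa1 plus Saa2 over the 6 monosome libraries was set against that of other genes by Pearson correlation of log2(CPM + 1), as a description. Among members, Crp was the most similar (r = 0.93) and Orm1 the most opposed (r = -0.76). Hp stood at 0.69, Lcn2 at 0.60, Itih4 at 0.46, Apcs at 0.22, Saa4 at -0.071 and Orm2 at -0.22. Of 2123 other genes with a mean of at least 50 CPM, the closest were ENSMUSG00000005625 (r = 0.988) and ENSMUSG00000042770 (r = 0.985), which are not paired with names here and were not called for diet (adjusted p = 0.152 and 0.118, edgeR). These libraries share the split between diets. HFHS library GCATA is the lowest of its group for Saa1, Saa2 and Crp, and also for Hp, Orm1, Orm2 and Apcs. It is not the lowest for Saa4, Itih4 or Lcn2.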

How the data were processed

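Ribosome profiling counts of 11 mouse liver libraries were analysed. The values are raw counts of footprints on coding sequences, as deposited by the authors, not normalized, with 1 Ensembl gene and 1 transcript identifier a line. Liver extracts were digested with RNase I and adaptors carried an 8 nt unique molecular identifier, per the labels' protocols. Reads were handled with cutadapt 3.5 and Bowtie2, per the submitters' processing notes. The genome build, annotation, strand setting, use of the identifiers and treatment of shared reads: not given in the sources used here. Columns were placed in groups by footprint class (PF or PD) and diet.

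All genes were fitted in R 4.3.3 by edgeR 4.0.16 (minimum count 10 in filterByExpr, TMM, robust quasi-likelihood F-test, two-sided, Benjamini-Hochberg adjustment, threshold 0.05), and the values of the 10 members are given. The SE is the log2 fold change divided by the square root of F. The procedure was run on simulated data with the same spread for every gene and no library that stood apart. That setting differs from these data, so the run is not used as support here. The 10 members are all named, as the rule for named genes asks. The members and lists were chosen with earlier results of these data known, and no p over the list is given. A list of other acute-phase, signalling and cell type genes could not be linked to identifiers and was not analysed here. Alternatives were DESeq2 1.42.0, other normalization and filters, non-robust estimation, leaving out libraries, 1 fit over all libraries, summed copies and a barcode block. Deviations from group means of same-barcode monosome and disome libraries correlated at 0.678 (ATCGT), 0.854 (AGCTA) and 0.673 (CGTAA) in chow, which was taken as pairing there. In HFHS they correlated at 0.0731 (CTAGA) and 0.273 (GCATA), which was not taken as pairing. With 2 HFHS disome libraries the disome deviations mirror each other, so the HFHS values neither show nor exclude pairing. The main fits used no barcode block. Barcodes that differ also correlated in chow (ATCGT with CGTAA at 0.532 and 0.539), because AGCTA stood apart. Promoters came from RefSeq (GRCm38.p6), matched by symbol.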

Additional observations from a re-analysis of the deposited data

How the results depend on the processing

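No alternative turned the direction of a member that was called. In monosomes the 2 members called higher for the diet became 1 with DESeq2 (which gave Saa2 no adjusted p), 1 without robust estimation, 1 with all 11 libraries in 1 fit, 1 with copies summed (by construction, since both became 1 line), 0 without both AGCTA libraries and 0 with a minimum count of 50, where Saa1 and Saa2 were not tested; that setting called 1 member lower, Orm1. Leaving out 1 library gave 0 to 2 members higher. For the chow ratio, 1 member higher became 3 with no filter and 2 without both AGCTA libraries, with 1 to 2 and 2 to 3 lower on leaving out 1 library. For the HFHS ratio, 2 members higher became 1 with DESeq2, 1 with a minimum count of 50, 1 without robust estimation and 1 with copies summed, and 0 to 2 higher and 1 to 2 lower on leaving out 1 library; where this left 1 HFHS disome library, it is assumed to vary like the rest. The members' share of counts was 0.835% and 0.848% in chow and HFHS monosomes and 0.66% in HFHS disomes when the most abundant gene was taken from the total.

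Signs turned only for members that were not called. With a minimum count of 50, Saa4 was -0.018 in monosomes and Itih4 -0.016 in disomes. With no filter, the chow ratios of Saa4 and Apcs were -0.045 and -0.0699, and the HFHS ratios of Apcs and Crp -0.016 and -0.11. The difference of diet effects of Apcs was -0.029 without both AGCTA libraries, that of Orm2 0.083 when summed with Orm1, and the HFHS ratio of Orm2 -0.25 when so summed. Leaving out 1 library gave, for the diet in monosomes, -0.031 to 0.10 (Saa4), -0.056 to 0.44 (Apcs) and -0.00101 to 0.16 (Hp); in disomes -0.14 to 0.67 (Saa1), -0.47 to 1.26 (Saa2) and -0.29 to 0.54 (Apcs); for the difference -1.72 to 0.0073 (Saa2), -0.00695 to 0.15 (Hp), -0.038 to 0.25 (Orm1), -0.40 to 0.77 (Apcs) and -0.22 to 0.57 (Crp); for the chow ratio -0.64 to 0.43 (Apcs); and for the HFHS ratio -0.37 to 0.45 (Apcs), -0.43 to 0.34 (Crp) and -0.10 to 0.50 (Orm2). The causes were not tested.

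With the sample barcode as a replicate block, Orm1 passed in chow as given above. In HFHS, where pairing by barcode was neither shown nor excluded, Saa4 passed (-0.54, adjusted p = 0.0355, edgeR), as it did with other count filters. There Lcn2 was 0.63, and the difference of diet effects for Apcs was -0.043. The block changed no other member's call. Over all genes the block gave 7 genes lower for the difference, against 0. Numbers of genes called also moved by over 1.5 times elsewhere. For the diet in monosomes, 204 higher became 125 with a minimum count of 50 and 131 without both AGCTA libraries, and 110 lower became 62 with DESeq2. In disomes, 51 higher and 32 lower became 16 and 10 with DESeq2, 25 higher without AGCTA, and 21 lower with no filter and in 1 fit over all libraries. For the chow ratio, 1017 and 1097 became 412 and 486 with a minimum count of 50, and for the HFHS ratio 1010 lower became 582 with DESeq2. Leaving out 1 library gave 85 to 203 higher and 57 to 117 lower in monosomes, 20 to 32 and 18 to 26 in disomes, and 425 to 825 and 555 to 861 for the HFHS ratio. Depth limits Saa2, Orm2 and Lcn2 most, with 20 counts or fewer in most libraries.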
